A study of Homo sapiens with 4 samples.

Results

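The 9 genes described here encode the hemidesmosome and its closest partners. They are the subunits of integrin α6β4 (ITGB4 and ITGA6), the plakins PLEC and DST, collagen XVII (COL17A1), the laminin chains LAMA3 and LAMB3, and the tetraspanins CD151 and CD9. They were taken by name from the 58735 Ensembl genes of the read count table, and all 9 passed the minimum mean of 10 counts in either line. The counts came from MDA-MB-231 and SUM159, which are human triple-negative breast cancer (TNBC) lines, after 72 h with 1 μM mebendazole (MBZ), an anthelmintic that binds tubulin. The control cells of each line received DMSO, the solvent, with 0 μM MBZ for the same 72 h. There was 1 library for each of the 4 groups, and each line is a single established line, so nothing below has a replicate check.

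Hemidesmosomes fasten an epithelial cell to the basement membrane. The extracellular part of α6β4 binds laminin-332, which holds the α3 and β3 chains encoded by LAMA3 and LAMB3, while the long cytoplasmic tail of β4 binds plectin, which ties it to keratin filaments. α6 pairs with β4 or with β1, whereas β4 is known to pair with α6 alone. In carcinoma cells that have lost hemidesmosomes, α6β4 is known for signaling together with growth factor receptors.

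The deposited counts summed to between 17143139 and 24897586 per library. Levels are CPM, a gene's reads as a share of the library's total after TMM scaling within a line, so levels of different lines are not on a shared scale. Changes are MBZ over DMSO on the log2 scale, with a 95% Clopper-Pearson interval (CI) for counting error alone. Reads copied by PCR and lacking molecular identifiers are not independent molecules, and less RNA per cell cannot be told apart from fewer cells that express a gene. Scaling by total counts, without TMM, added 0.27 to the median log2 change of all genes in MDA-MB-231 and 0.30 in SUM159. Of the receptors by which TNBC is defined, ESR1 was at 0 to 18 counts and PGR at 0 in every library, which allows at most 0.178 CPM (3 counts). ERBB2 had 1216 to 1996 counts. VIM, an intermediate filament of mesenchymal cells, had 20703 to 54409 counts, whereas the epithelial genes CDH1, EPCAM and GRHL2 had at most 12, 190 and 6 counts. Of markers of other cells, CDH5 and LUM had at most 6 and 8 counts, PECAM1 328 to 825, PTPRC 8 to 216 and PDGFRB 74 to 2235. Their 5 summed levels were 22.7 and 22.9 CPM in MDA-MB-231 with DMSO and MBZ, and 184 and 56.2 CPM in SUM159, and their part in the results was not tested.

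ITGB4 was lower after MBZ in both lines, whereas its partner ITGA6 was lower in MDA-MB-231 and not in SUM159. ITGB4 (ENSG00000132470, 40 exons on chromosome 17 of GRCh38, from 75721328 to 75757818) had 10244 counts in the DMSO library of MDA-MB-231 and 4147 in its MBZ library, and 2526 and 594 in those of SUM159. The level went from 451 to 221 CPM in MDA-MB-231 and from 149.9 to 28.3 CPM in SUM159, 2.05-fold and 5.29-fold lower. The log2 changes were -1.03 (CI -1.08 to -0.98) and -2.40 (CI -2.54 to -2.28). In MDA-MB-231 ITGB4 was the 717th lowest of 15142 genes, after CD151 at the 694th place, and in SUM159 it was the 236th lowest of 15674. With TMM over the 4 libraries, the SUM159 library with MBZ was the lowest in ITGB4, 7.57-fold below the MBZ library of MDA-MB-231.

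ITGA6 (ENSG00000091409, chromosome 2 from 172427354 to 172506459, 26 exons) had 7624 and 3925 counts in MDA-MB-231 and 1803 and 2815 in SUM159, with DMSO and MBZ respectively. Its level went from 336 to 209 CPM in MDA-MB-231, a log2 change of -0.69 (CI -0.74 to -0.63), and from 107 to 134 CPM in SUM159, a log2 change of 0.33 (CI 0.24 to 0.41). The gap between both lines, 1.01 on the log2 scale, had a counting interval of 0.91 to 1.11. With scaling by total counts ITGA6 was at -0.42 in MDA-MB-231, under 1.5-fold, and at 0.63 in SUM159, over it. Exons of ITGA6 overlap 3 genes on the opposite strand, which had at most 45 counts in a library.

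The reads of ITGB4 per read of ITGA6, a ratio that needs no scaling between libraries, had overlapping counting intervals in the untreated lines and lay far apart after MBZ. With DMSO the ratio was 1.34 in MDA-MB-231 (CI 1.30 to 1.38) and 1.40 in SUM159 (CI 1.32 to 1.49). With MBZ it was 1.06 (CI 1.01 to 1.10) in MDA-MB-231 and 0.211 (CI 0.193 to 0.231) in SUM159. The ratio was thus 1.27-fold lower in MDA-MB-231 and 6.64-fold lower in SUM159. Divided by the length of the canonical transcript, β4 and α6 transcripts stood at 1.33, 1.04, 1.38 and 0.208 β4 per α6 in MDA-MB-231 with DMSO and with MBZ and in SUM159 with DMSO and with MBZ. Only the SUM159 library with MBZ had fewer β4 than α6 transcripts beyond counting error. ITGB1, the other partner of α6, had log2 changes of -0.32 in MDA-MB-231 and -0.38 in SUM159, so that reads of ITGB4 per read of ITGB1 were 1.64-fold and 4.07-fold lower.

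**Figure D1:**
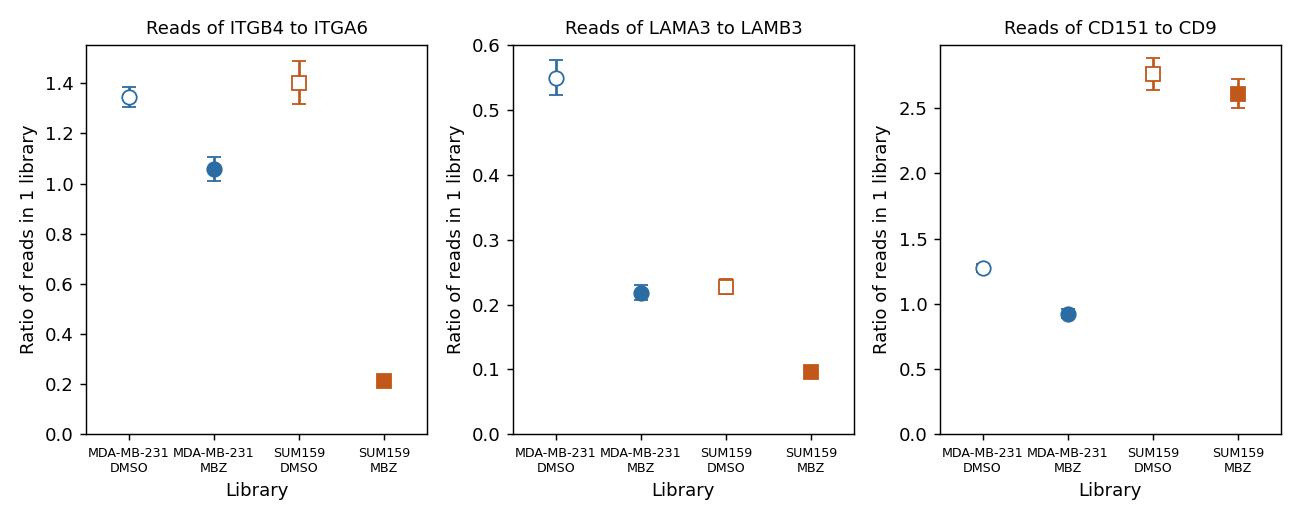
Ratio of reads within each of the 4 libraries (y axis, starting at 0) for ITGB4 to ITGA6, LAMA3 to LAMB3 and CD151 to CD9, with 95% Clopper-Pearson counting intervals. Open symbols are DMSO and filled symbols MBZ, circles are MDA-MB-231 and squares SUM159. The ITGB4 to ITGA6 ratio is between 1.06 and 1.40 in 3 libraries and 0.211 in SUM159 with MBZ, and the LAMA3 to LAMB3 ratio is lower with MBZ in both lines. The CD151 to CD9 ratio is 1.28 and 0.926 in MDA-MB-231 and 2.76 and 2.61 in SUM159.

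LAMB3 and LAMA3 did not move together. LAMB3 (ENSG00000196878, chromosome 1 from 209614870 to 209652425, 23 exons) was higher and LAMA3 (ENSG00000053747, chromosome 18 from 23689453 to 23956222, 75 exons) was lower after MBZ in both lines beyond counting error, but LAMB3 in SUM159 and LAMA3 in MDA-MB-231 were under 1.5-fold. LAMB3 had 4638 and 7591 counts in MDA-MB-231 and 7654 and 12439 in SUM159. That is 204 and 404 CPM with a log2 change of 0.98 (CI 0.93 to 1.04) in MDA-MB-231, and 454 and 593 CPM with 0.38 (CI 0.34 to 0.43) in SUM159. In each line the MBZ library was thus the higher one, by more in the line that had less LAMB3 to begin with.

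LAMA3 had 2547 and 1658 counts in MDA-MB-231 and 1740 and 1192 in SUM159, or 112 and 88.2 CPM and 103 and 56.8 CPM. Its log2 changes were -0.35 (CI -0.44 to -0.26), which was -0.081 with scaling by total counts, and -0.86 (CI -0.97 to -0.75), which was -0.56 and under 1.5-fold with that scaling. The reads of LAMA3 per read of LAMB3 went from 0.549 to 0.218 in MDA-MB-231 and from 0.227 to 0.0958 in SUM159. This ratio was 2.51-fold and 2.37-fold lower, and the intervals of the log2 changes, -1.43 to -1.23 and -1.36 to -1.13, overlapped. The table does not separate the long and short forms of LAMA3, which start at different promoters.

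Per length of the canonical transcript, with the 75-exon transcript as the length of LAMA3, α3 per β3 was 0.207 and 0.0823 in MDA-MB-231 and 0.0857 and 0.0361 in SUM159. There was thus less α3 than β3 RNA in each of the 4 libraries, and least in SUM159 with MBZ.

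The promoters of LAMA3 and LAMB3 are shown because the RNAs of these partner chains moved apart, and that of COL17A1 because it was the member with the highest fold change in SUM159. The sequences are RefSeq's on GRCh38.p14 and give the 250 bases before a transcription start, 5′ to 3′ on the strand of the gene, with matches to the AP-1 motif TGANTCA on either strand in capitals. AP-1 is a dimer of FOS and JUN proteins. The LAMA3 window is chr18:23872770-23873019 on the plus strand and lies before a start inside the gene. The LAMB3 window is chr1:209651375-209651624 on the minus strand, 1 of 3 LAMB3 starts in the table, and also lies before a start inside the gene. Of the 3 it is the only window with a match, and the window before the outermost LAMB3 start held no match. The COL17A1 window is chr10:104085881-104086130 on the minus strand.
LAMA3: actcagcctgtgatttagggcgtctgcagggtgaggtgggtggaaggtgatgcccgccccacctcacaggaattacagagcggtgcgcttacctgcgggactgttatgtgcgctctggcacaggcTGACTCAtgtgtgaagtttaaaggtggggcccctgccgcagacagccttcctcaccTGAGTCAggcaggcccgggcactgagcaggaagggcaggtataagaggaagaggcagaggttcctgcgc
LAMB3: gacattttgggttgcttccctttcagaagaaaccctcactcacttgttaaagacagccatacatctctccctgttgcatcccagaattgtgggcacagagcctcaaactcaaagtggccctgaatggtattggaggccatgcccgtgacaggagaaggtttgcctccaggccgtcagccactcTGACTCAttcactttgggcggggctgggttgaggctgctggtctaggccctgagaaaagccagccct
COL17A1: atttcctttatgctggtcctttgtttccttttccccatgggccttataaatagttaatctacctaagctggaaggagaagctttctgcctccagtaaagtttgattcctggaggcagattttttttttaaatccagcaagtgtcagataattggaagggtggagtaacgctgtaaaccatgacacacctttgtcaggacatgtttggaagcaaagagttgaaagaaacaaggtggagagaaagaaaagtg

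The LAMA3 window held 2 matches, which began 125 and 69 bases before the start, and the LAMB3 window held 1, which began 67 bases before it. The other LAMB3 windows and that of COL17A1 held 0, as did those of ITGA6, DST and CD9. Of 35116 promoter windows of the same length, 6.57% held the motif. A match describes the letters only. Promoters of 6 of the 9 members were in the table, and ITGB4, PLEC and CD151 were not.

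COL17A1 was far higher after MBZ in SUM159. It encodes the transmembrane collagen XVII, which binds β4, plectin and the DST protein BP230 in the mature hemidesmosome. COL17A1 (ENSG00000065618, chromosome 10 from 104031286 to 104085880, 56 exons) had 413 and 389 counts in MDA-MB-231 and 176 and 1042 in SUM159. The level was 18.2 and 20.7 CPM in MDA-MB-231, with a log2 change of 0.19 (CI -0.017 to 0.39), and 10.4 and 49.7 CPM in SUM159, with 2.25 (CI 2.02 to 2.49). It was 4.75-fold higher in SUM159, where 96.4% of the genes compared had a lower log2 change. In untreated cells it was the member of lowest level per length in both lines, and in SUM159 with MBZ it stood above ITGB4, at 19.3 against 10.5 TPM (reads divided by the length of the canonical transcript and brought to the same total in each library).

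**Figure D2:**
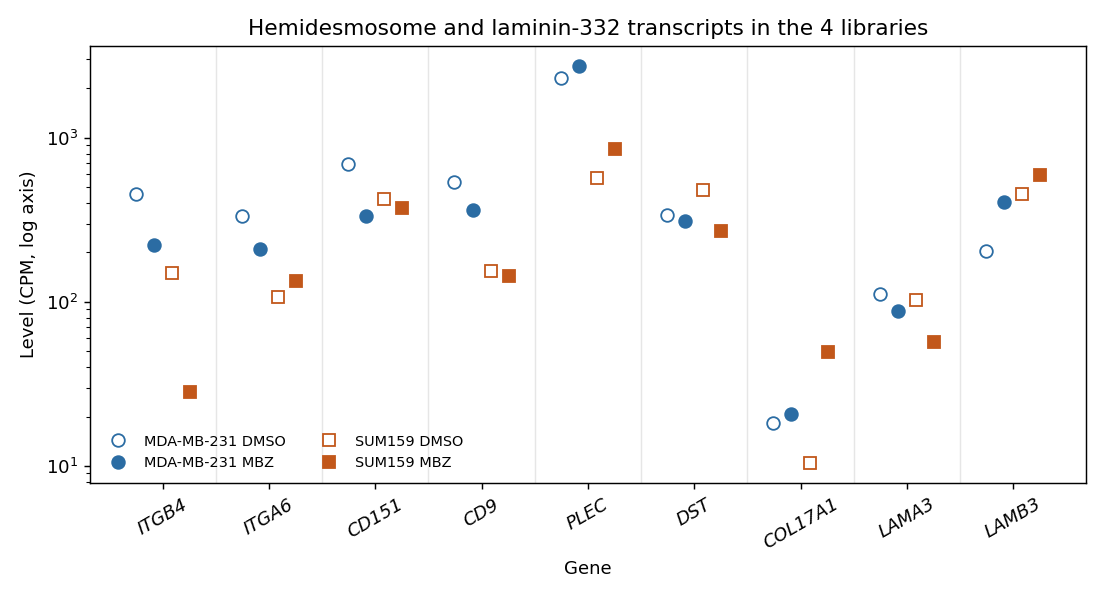
Level of each hemidesmosome gene in the 4 libraries, in CPM on a log axis, with 1 point per library (open DMSO, filled MBZ, circles MDA-MB-231, squares SUM159). ITGB4 is at 28.3 CPM in the SUM159 library with MBZ, where COL17A1 reaches 49.7 CPM.

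The plakins differed from each other. PLEC (ENSG00000178209, chromosome 8 from 143915153 to 143976734, 32 exons), the gene of plectin, had 52453 and 51607 counts in MDA-MB-231 and 9596 and 17840 in SUM159. The level was 2310 and 2745 CPM in MDA-MB-231, a log2 change of 0.25 (CI 0.23 to 0.27), and 569 and 850 CPM in SUM159, a log2 change of 0.58 (CI 0.54 to 0.61). Both lay above the counting error, and the 1.49-fold difference in SUM159 was just short of 1.5-fold. PLEC was called in SUM159 with DESeq2 size factors (0.59) and with scaling by total counts (0.88). DST (ENSG00000151914, chromosome 6 from 56457987 to 56954830, 104 exons), the gene of BP230 and of longer forms in nerve and muscle, had 7673 and 5861 counts in MDA-MB-231 and 8110 and 5682 in SUM159. Its level was 338 and 312 CPM in MDA-MB-231, a log2 change of -0.12 (CI -0.17 to -0.067) that was 0.15 with scaling by total counts. In SUM159 it was 481 and 271 CPM, with -0.83 (CI -0.88 to -0.78), which was -0.53 and under 1.5-fold with scaling by total counts. DST has 41 annotated transcripts, so that its counts do not tell the epithelial form from the others.

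The tetraspanins CD151 and CD9, which gather integrins in the membrane, had lower levels after MBZ in MDA-MB-231, CD151 by over 1.5-fold and CD9 by just under it, and lay nearer to their control level in SUM159. CD151, which binds α6 and α3 integrins directly (ENSG00000177697, chromosome 11 from 832887 to 839831, 9 exons), had 15679 and 6304 counts in MDA-MB-231 and 7151 and 7884 in SUM159. The level went from 690.5 to 335 CPM in MDA-MB-231, 2.06-fold lower with a log2 change of -1.04. In SUM159 it went from 424 to 376 CPM, with -0.18 (CI -0.22 to -0.13), a value that was 0.13 with scaling by total counts. Exons of CD151 share 257 bases with POLR2L on the opposite strand, which had 7768 and 4647 counts in MDA-MB-231 and 2119 and 2605 in SUM159, and the strand setting of the counting is not given in the sources used here.

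CD9 (ENSG00000010278, chromosome 12 from 6199715 to 6238271, 8 exons) had 12288 and 6807 counts in MDA-MB-231 and 2592 and 3021 in SUM159. Its log2 changes were -0.58 (CI -0.62 to -0.54, from 541 to 362 CPM) and -0.095 (CI -0.17 to -0.019, from 154 to 144 CPM). The value in SUM159 was 0.21 with scaling by total counts. Its 1.49-fold difference in MDA-MB-231 was just short of 1.5-fold, and with DESeq2 size factors it was called, at -0.63.

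**Figure D3:**
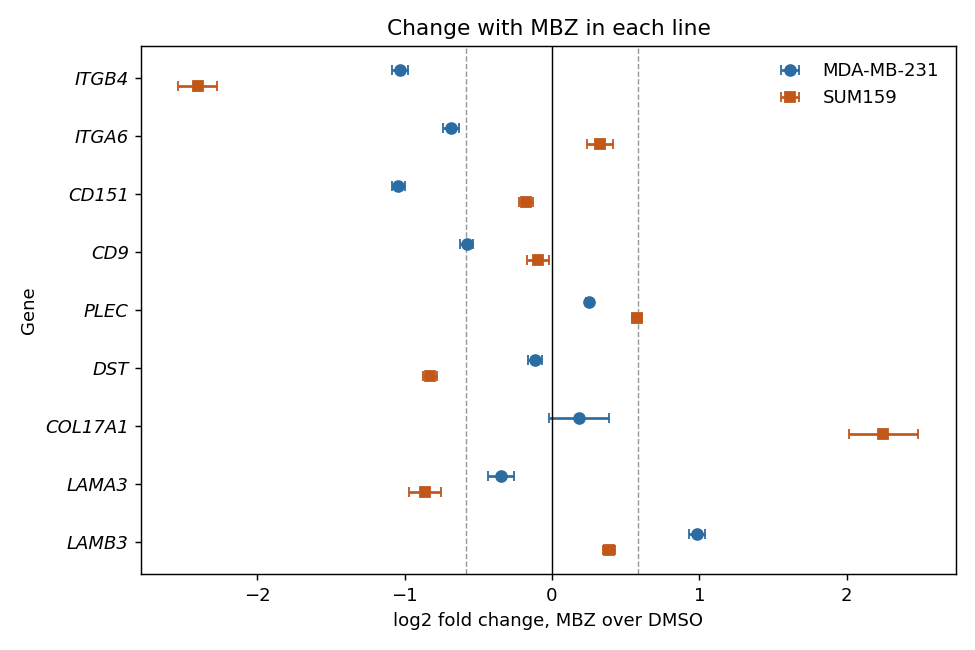
log2 change of MBZ over DMSO (x axis) for the hemidesmosome genes in MDA-MB-231 (circles) and SUM159 (squares), with 95% Clopper-Pearson counting intervals, which cover no spread between cultures. Dashed lines mark a fold change of 1.5. ITGB4 is left of them in both lines, whereas ITGA6 lies on opposite sides of 0.

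At a fold change of at least 1.5, 1 of the 9 genes was higher in MDA-MB-231 (LAMB3) and 3 were lower (ITGB4, ITGA6 and CD151). Of all 15142 genes compared in that line, 18.3% were higher and 15.8% lower. In SUM159 1 was higher (COL17A1) and 3 were lower (ITGB4, DST and LAMA3), against 21.5% and 21.7% of 15674 genes. With scaling by total counts MDA-MB-231 had 1 member higher and 2 lower, where ITGA6 was no longer called, and SUM159 had 4 higher and 1 lower, beside 32.8% and 12.8% of all genes, where DST and LAMA3 were no longer called. All genes of MDA-MB-231 went from 2765 higher and 2386 lower to 4408 and 1146. ITGB4 was the 1 member lower in both lines at this fold, which held for 4.71% of the 13733 genes compared in both. None of the 9 was higher in both or opposite in both at this fold, while 6.12% and 6.04% of all genes were. LAMB3 was higher in both with scaling by total counts, at 1.25 and 0.69 on the log2 scale. Without a fold limit, 8 of the 9 had the same sign in both lines (5 lower, 3 higher), as did 56.3% of all genes. This number was 5 with scaling by total counts, where DST, CD151 and CD9 also differed in sign. The median log2 change of the 9 was -0.35 in MDA-MB-231 and -0.095 in SUM159, beside -0.018 and -0.034 for all genes compared. The medians with scaling by total counts were -0.081 and 0.21 for the 9 and 0.25 and 0.27 for all genes.

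A test with a spread taken from the data was possible for changes shared by the lines, where the spread is the difference in response between them. In edgeR's quasi-likelihood test on cell line and treatment over 16100 genes, with Benjamini-Hochberg adjustment, 0 of the 9 genes passed an adjusted p of 0.05, and 1 had an unadjusted p under 0.05. Of all genes, 0.00621% passed as higher and 0% as lower, against 629 and 521 genes at an unadjusted p under 0.05. DESeq2's Wald test gave an adjusted p for 13603 genes and called 41 of them higher and 55 lower, 1 of the latter a member (ITGB4). ITGB4 had the smallest p of the 9, with a shared log2 change of -1.68 (SE 0.41, edgeR unadjusted p = 0.00526, adjusted p = 0.527), lower in both lines. Under the 4 alternatives this adjusted p lay between 0.00135, when all genes with any count were kept, and 1.00, when the model left out cell line. COL17A1 had 1.25 (SE 0.53, adjusted p = 0.701 in edgeR's test) and LAMB3 0.72 (SE 0.35, adjusted p = 0.721 in the same test). The adjusted p of the other 6 lay between 0.730 and 0.951.

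The untreated lines differed in most of these genes. With TMM over the 4 libraries, 6 of the 9 were at least 1.5-fold lower in SUM159 than in MDA-MB-231 with DMSO and 1 was higher, against 30.6% lower and 31.0% higher among 15559 genes. PLEC was 3.89-fold, CD9 3.38-fold, ITGA6 3.01-fold and ITGB4 2.89-fold higher in MDA-MB-231. COL17A1 and CD151 were 1.67-fold and 1.56-fold higher there. LAMB3 was 2.32-fold higher in SUM159 (log2 difference 1.21, CI 1.16 to 1.26). For LAMA3 the difference of -0.061 (CI -0.15 to 0.028) lay within counting error. DST, at 0.57 (CI 0.52 to 0.61), was just under the limit. These values share the DMSO libraries with the changes above. In the MBZ libraries ITGB4 was 7.57-fold higher in MDA-MB-231, and ITGA6 1.51-fold, whereas COL17A1 was higher in SUM159 (log2 difference 1.30).

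Per length of the canonical transcript, the tetraspanins were the most abundant of the 9 with DMSO, and the order changed with MBZ. With DMSO, CD151 and CD9 stood at 851 and 841 TPM in MDA-MB-231, a ratio of 1.01 that counting error does not separate from 1 (CI 0.988 to 1.04), but with the merged length of all exons this ratio was 1.91. PLEC followed at 297, ITGB4 at 146, ITGA6 at 109.9, LAMB3 at 96.9, DST at 26.0, LAMA3 at 20.1 and COL17A1 at 6.17 TPM. In SUM159 with DMSO the order was CD151 at 489.7, CD9 at 224, LAMB3 at 202, PLEC at 68.6, ITGB4 at 45.3, DST at 34.7, ITGA6 at 32.8, LAMA3 at 17.3 and COL17A1 at 3.32 TPM. After MBZ LAMB3 was the fourth in MDA-MB-231, at 236 TPM, and the second in SUM159, at 321 TPM, while ITGB4 became the last of the 9 there. These places have no spread over samples. With the merged length of all exons ITGB4 was the eighth rather than the ninth in SUM159 with MBZ. LAMB3 was then the second in MDA-MB-231 and the first in SUM159 with MBZ. With this length PLEC stood above CD9 in each of the 4 libraries, and LAMB3 also stood above CD9 in SUM159 with DMSO.

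Other genes of the adhesion were taken from lists of laminin chains, plakins and keratins, laminin receptors, tetraspanins, α6β4 signaling partners, basement membrane proteins, proteases that process laminin-332, and p63, with 64 genes in all. In MDA-MB-231 56 had enough reads, 7 of them at least 1.5-fold higher and 13 lower, and in SUM159 62, with 4 higher and 29 lower. The shares over all genes were the 18.3% and 15.8% of MDA-MB-231 and the 21.5% and 21.7% of SUM159 given above, and the same shares are the background of each list. With scaling by total counts the numbers were 11 and 8, and 7 and 20, beside 29.1% and 7.57% of all genes in MDA-MB-231 and 32.8% and 12.8% in SUM159. Both lines shared 1 higher gene, KRT14, and 8 lower genes, BCAM, PPL, CD81, TSPAN9, COL4A1, COL4A2, BMP1 and TP63, beside 6.12% and 4.71% of all genes compared in both. ERBIN and COL4A6 were called in opposite directions, COL4A6 at 2.04 in MDA-MB-231 (21 and 72 counts) and -0.75 in SUM159, the latter at -0.45 and under the fold with scaling by total counts. With scaling by total counts PPL, BMP1 and TP63 in MDA-MB-231 and TSPAN9 in SUM159 were under this fold, and KRT14 had only 2 counts in MDA-MB-231 with DMSO. Of the 64, 62 were tested in edgeR's shared test and 0 passed the adjusted p. Of these 62, 1 and 11 had an unadjusted p under 0.05 as higher and lower, beside 629 and 521 of all 16100 genes.

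Of the chains of other laminins 5 of 8 compared in SUM159 were at least 1.5-fold lower, with log2 changes of -1.86 for LAMA5, -1.74 for LAMB1, -1.63 for LAMB2, -1.33 for LAMC1 and -1.06 for LAMA2, whereas 0 of 7 were lower in MDA-MB-231. LAMA5, LAMB1, LAMB2 and LAMC1 form laminin-511 and laminin-521, the laminins of most mature basement membranes. Their values in MDA-MB-231 were -0.14, -0.53, 0.28 and -0.15, of which LAMA5 and LAMC1 turned to 0.13 and 0.12 with scaling by total counts. LAMA1, LAMA4 and LAMC3, the other 3 of the 8, were at -0.12, -0.19 and 0.57 in SUM159 with intervals that held 0. None of the 8 was at least 1.5-fold higher in SUM159, and 1 was with scaling by total counts. Basement membrane partners were lower for 7 of 8 in SUM159, among them HSPG2 at -1.31 and COL4A5 at -1.47, and for 2 of 6 in MDA-MB-231. With scaling by total counts 4 of the 8 were lower in SUM159.

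BCAM, a membrane receptor for the laminin α5 chain, was lower in both lines. It had 1288 and 365 counts in MDA-MB-231 and 344 and 92 in SUM159, log2 changes of -1.55 (CI -1.72 to -1.38) and -2.22 (CI -2.57 to -1.88). In edgeR's shared test its adjusted p was 0.423, with an unadjusted p of 0.00123. ITGA3, the subunit of α3β1 and another receptor of laminin-332, was at 0.030 in MDA-MB-231 and at 0.66 in SUM159. COL7A1, the anchoring fibril collagen beneath hemidesmosomes, was at 0.70 and -0.37.

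Of the plakins and keratins, PPL, a plakin of desmosomes and the cornified envelope, was lower in both lines, with log2 changes of -0.74 and -2.25. The simple epithelial keratins KRT8 and KRT18 were at -0.95 and -0.74 in MDA-MB-231 and at -0.0077 and -0.30 in SUM159. KRT8 was at 0.29 and KRT18 at 0.0044 in SUM159 with scaling by total counts, and KRT18 was at -0.47 and under the fold in MDA-MB-231. KRT5 and KRT14, the keratins that hemidesmosomes hold in basal epithelium, had at most 13 and 48 counts in a library. Of the other tetraspanins 3 of 10 were lower in MDA-MB-231 and 4 of 10 in SUM159, the latter 2 with scaling by total counts, and CD81 was lower in both lines, at -1.24 (CI -1.31 to -1.18) and -1.24 (CI -1.29 to -1.19). Of the 12 signaling partners ERBIN, which binds β4 and ERBB2, was 1.5-fold or more apart in opposite directions, at 0.61 and -0.71. It was at 0.56 in MDA-MB-231 with DESeq2 size factors and at -0.41 in SUM159 with scaling by total counts, both under the fold.

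**Figure D4:**
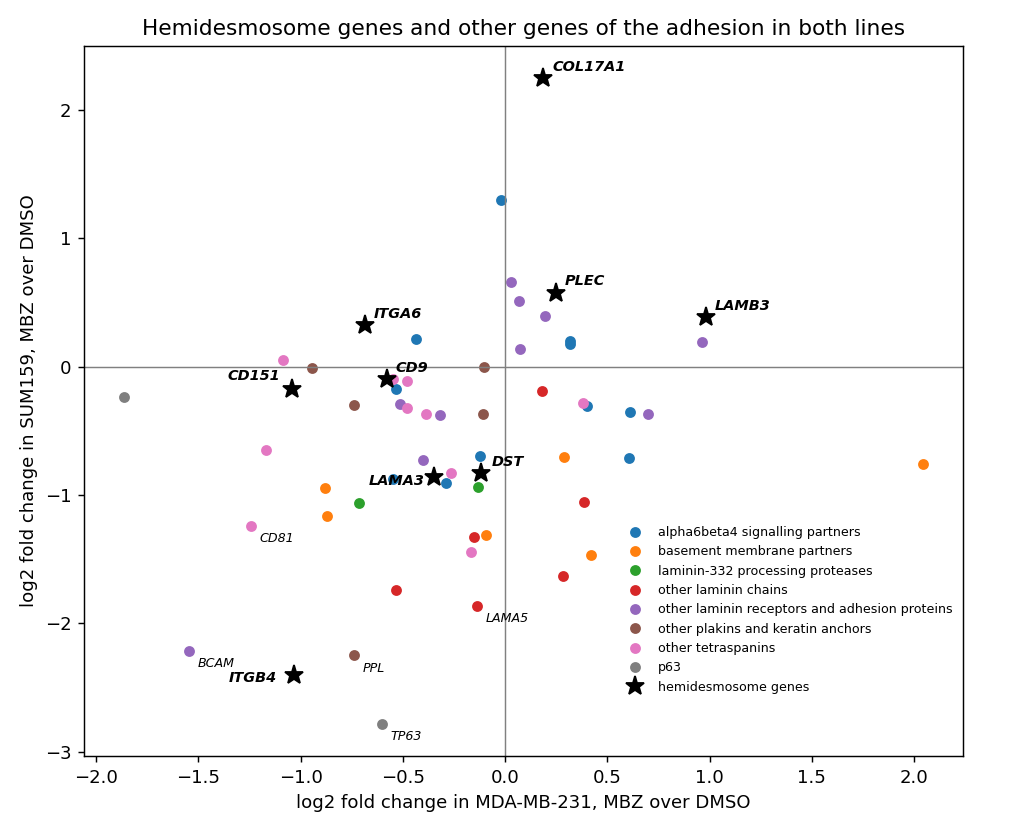
log2 change of MBZ over DMSO in MDA-MB-231 (x axis) and SUM159 (y axis) for the 9 hemidesmosome genes (stars) and 52 genes of the other lists with over 3 counts in every library (circles, colored by list). ITGB4 lies beside BCAM and PPL at the lower left, COL17A1 at the top, and 8 of the 9 stars lie in quadrants of equal sign (5 with scaling by total counts).

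The genes whose centered log2 CPM over the 4 libraries lay closest to that of ITGB4, among the 11152 genes averaging 100 counts or more, were ARRB1, FCGRT, GPRASP2, L1CAM and EFHD1, at Euclidean distances of 0.31 to 0.59. ARRB1, the closest, had log2 changes of -0.84 and -2.08. For LAMB3 they were H2BC20P, APOL2, KPNA5, MST1 and CCNO, at distances of 0.11 to 0.20. With 4 libraries such likeness is a description, and it rests mainly on the difference between the lines and on the changes given above.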

How the data were processed

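The authors sequenced mRNA of MDA-MB-231 and SUM159 as paired reads, used STAR 2.5 for mapping to GRCh38 and HTSeq 0.6.1 (union mode) for counting, and deposited raw counts per gene. The annotation release and strand setting are not given in the sources used here. Samples were grouped by their labels. Symbols were matched by Ensembl identifier for 58207 of 58735 genes, and coordinates and lengths are those of GENCODE release 44 on GRCh38.

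Counts were scaled with edgeR 4.0.16 (R 4.3.3) by TMM over the 2 libraries of a line, and log2 changes used a prior count of 0.125. A gene was called at 1.5-fold or more, if its 2 libraries averaged 10 counts or more. Shared changes were tested across all genes with edgeR's quasi-likelihood test (filterByExpr, TMM over 4 libraries, Benjamini-Hochberg), with DESeq2 1.42.0 as an alternative. The study's edgeR p-values on single libraries were not repeated. Functions were tested on simulated data. Alternatives were other scalings, filters, priors, folds, models and lengths.

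The members and gene lists were chosen with earlier results of these data known. The text names all 9 members, a part of the genes of the lists, and the 5 genes nearest in pattern to ITGB4 and to LAMB3. List genes called with a mean of at least 100 counts were to be named first. Some of these are left out, and some list genes with fewer counts are named. Some genes are not reported here.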

Additional observations from a re-analysis of the deposited data

Results flagged for a closer look

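ITGA6 moved in opposite directions in both lines beyond counting error, with a log2 change of -0.69 in MDA-MB-231 and 0.33 in SUM159. The difference between the lines was not tested, since each group has 1 library.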

How the results depend on the processing

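Pairing by replicate number was not possible, since each group holds 1 library, and the shared test already had cell line as a term. Of the 9 genes, 0 were at least 2-fold higher in MDA-MB-231, where 1370 of all 15142 genes were. In SUM159 1 was at least 2-fold lower, as were 1676 of all 15674 genes. With DESeq2 size factors 2 were higher in SUM159, where 3436 of all 15674 genes were. With scaling by total counts 4 were higher and 1 lower in SUM159, beside 32.8% and 12.8% of all genes. In the shared test 1 of the 9, ITGB4, was lower with DESeq2's Wald test (log2 change -1.72) and 1, again ITGB4, when all genes with any count were kept (-1.71). The cause was not tested. The other counts of members stayed within 1.5 times, and no called value of the 9 changed sign under the alternatives run. The uncalled values of DST in MDA-MB-231 and of CD151 and CD9 in SUM159 turned positive with scaling by total counts.

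Over all genes, scaling by total counts gave 4408 higher and 1146 lower in MDA-MB-231 (2765 and 2386 with TMM) and 5135 and 2004 in SUM159 (3376 and 3403). A fold change of 2 gave 1370 and 779, and 1996 and 1676. Keeping all genes with 1 count or more gave 9089 and 5693, and 11750 and 6844, as more genes were compared. A mean of at least 100 counts gave 1114 higher in MDA-MB-231, and 1422 higher and 2250 lower in SUM159. The shared test called 1 gene higher and 0 lower of 16100, and DESeq2's Wald test 41 and 55 of 13603. On all genes with any count the shared test called 153 and 145 of 32295. Without cell line in the model it called 0 and 0, with 106 and 41 genes at an unadjusted p under 0.05. COL17A1 in untreated SUM159, at 176 counts, had the fewest reads of the 9, so that its intervals are the widest.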

Other observations

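TP63, the gene of p63, a transcription factor of basal epithelium, had few reads in 1 line and many in the other. There were 123 and 67 counts in MDA-MB-231 and 2131 and 385 in SUM159, with DMSO and MBZ. Its log2 changes were -0.60 (CI -1.06 to -0.16), which was -0.34 with scaling by total counts, and -2.78 (CI -2.95 to -2.63). The adjusted p in edgeR's shared test was 0.609, lower in both lines. Its relative TP73 stood at 264 and 60 counts in MDA-MB-231 and at 34 and 36 in SUM159.

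Of the proteases that process laminin-332 chains, MMP2 had 50494 and 10911 counts in SUM159 and 8 and 3 in MDA-MB-231. BMP1 was lower in both lines, with log2 changes of -0.72 and -1.06, and MMP14 was at -0.13 and -0.94.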
